A study of Mus musculus with 2 samples.

Results

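The 10 genes described here are the Notch receptors Notch1, Notch2, Notch3 and Notch4, the Notch ligands Jag1 and Dll4, and the target genes Hes1, Hey1, Heyl and Nrarp. They were found by matching the Ensembl gene IDs of the deposited tables to these symbols, and all 10 were present among the 55573 listed genes. RNA-seq profiled mesenteric arteries, resistance vessels of the gut, from wild type C57BL/6 mice 10 weeks of age. The control library came from arteries in 5 mM K+ and the depolarized library from arteries in 60 mM K+, with 60 min labelled for both, and each library pooled tissue of 2 mice. Groups follow the treatment labelled for each library, while a protocol text that both libraries share names 60 mM K+ alone. Solutions for both groups contained tetrodotoxin against nerve activity. A methods passage takes control tissue from the distal side of ligated arteries, after an incubation without perfusion. The rest was then perfused with 60 mM K+. If this holds for these libraries, segment, time and perfusion cannot be told apart from K+. Reads on genes totalled 10480918 in the control and 11289598 in the depolarized library. Because each condition has 1 library, differences could not be checked against replicates, and p-values are left out.

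Notch signaling passes between touching cells. Jagged and Delta-like ligands on one cell bind Notch receptors on its neighbor, proteases then release the intracellular part of the receptor, and this part joins the DNA-binding protein RBPJ to switch on Hes and Hey repressors and the feedback inhibitor Nrarp. In arteries, Notch1, Notch4, Dll4 and Hey1 are known from the endothelium, Notch3 and Heyl from smooth muscle and pericytes, Jag1 from both layers, and the pathway is known for arterial identity and smooth muscle maturation. The question the comparison addresses is which genes differ after sustained depolarization of the artery, a stimulus that the study links to CREB, the transcription factor that binds cAMP response elements (CRE).

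Because the study centers on CREB, the bases just upstream of the Notch genes are shown first. The RefSeq promoter table (GRCm38.p6) matched 7 of the 10 genes, and Hes1, Hey1 and Heyl were not matched. The 250 bases before each RefSeq start were searched on both strands for the CRE half-site TGACG, the full CRE TGACGTCA (which contains the half-site), the RBPJ core TGGGAA and the E-box CACGTG. Sequences are shown for the genes with a half-site, Notch3, Jag1 and Nrarp, and for Dll4, the ligand set against Jag1 below, which has none. They read 5′ to 3′ on the strand of the gene, and capitals mark the half-site, which lies on the other strand and therefore reads CGTCA. The Notch3 window is chr17:32166891-32167140 (minus strand), the Jag1 window chr2:137116645-137116770 (minus strand), the Dll4 window chr2:119325534-119325783 (plus strand) and the Nrarp window chr2:25180508-25180757 (plus strand). For Jag1 the 124 bases next to the RefSeq start are left out, because a GENCODE vM1 transcript already contains them.
Notch3: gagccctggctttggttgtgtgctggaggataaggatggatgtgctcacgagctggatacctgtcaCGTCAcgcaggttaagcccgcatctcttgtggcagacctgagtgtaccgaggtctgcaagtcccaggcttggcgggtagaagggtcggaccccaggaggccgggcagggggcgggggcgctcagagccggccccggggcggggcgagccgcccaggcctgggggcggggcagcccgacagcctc
Jag1: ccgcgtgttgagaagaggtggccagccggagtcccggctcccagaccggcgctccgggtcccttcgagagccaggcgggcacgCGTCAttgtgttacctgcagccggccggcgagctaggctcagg
Dll4: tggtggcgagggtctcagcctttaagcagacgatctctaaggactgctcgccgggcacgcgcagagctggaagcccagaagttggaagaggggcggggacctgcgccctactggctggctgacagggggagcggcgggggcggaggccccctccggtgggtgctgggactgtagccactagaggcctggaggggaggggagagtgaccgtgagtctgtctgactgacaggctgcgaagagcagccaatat
Nrarp: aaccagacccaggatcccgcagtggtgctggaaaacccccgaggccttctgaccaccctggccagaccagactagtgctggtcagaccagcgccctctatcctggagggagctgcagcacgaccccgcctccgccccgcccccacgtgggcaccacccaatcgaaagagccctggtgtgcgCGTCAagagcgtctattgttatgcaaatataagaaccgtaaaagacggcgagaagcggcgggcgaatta

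The half-site was present upstream of Notch3, Jag1 and Nrarp, in 3 of 7 windows, compared with 17.8% of all 32851 RefSeq promoter windows of this length. It lay 184 to 180 bases before the start of Notch3, 167 to 163 bases before Jag1 and 69 to 65 bases before Nrarp. The full CRE was in 0 of 7 windows and in 1.55% of all windows, and the RBPJ core was in 0 of 7 and in 21.6% of all. The E-box, the site bound by Hes and Hey factors and many others, was upstream of Nrarp alone among the 7 and in 6.02% of all windows.

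Between the libraries, the 10 Notch genes differed by less than 2-fold. Values are counts scaled to a library of 1000000 reads (CPM) by the TMM factors of edgeR, and log2(fold-change) is the log2 of the ratio of 60 mM K+ to 5 mM K+. In bulk tissue, fewer cells of a type and less RNA per cell cannot be told apart. Intervals are 95% exact (Clopper-Pearson) intervals from the division of a gene's reads between the libraries, and cover counting error only. Past a log2(fold-change) of 1, 0 of 10 genes were higher and 0 were lower, beside 5.54% and 5.86% of all genes. Here and below, all genes means the 14829 genes whose reads in the libraries together reached 10. Among the 10154 genes within the Notch genes' range of reads, 2.91% were higher and 0.67% lower past 2-fold. The counting interval lay above 0 for 6 genes and below 0 for 3 genes, and these shares are 25.0% and 20.3% among all genes, and 30.9% and 22.9% among genes in that range of reads. The median for the 10 genes was 0.24, compared with -0.0050 for all genes. Scaling by total counts instead of TMM lowers every value by 0.21, which takes the median of the Notch genes to 0.028 and that of all genes to -0.21.

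**Figure D1:**
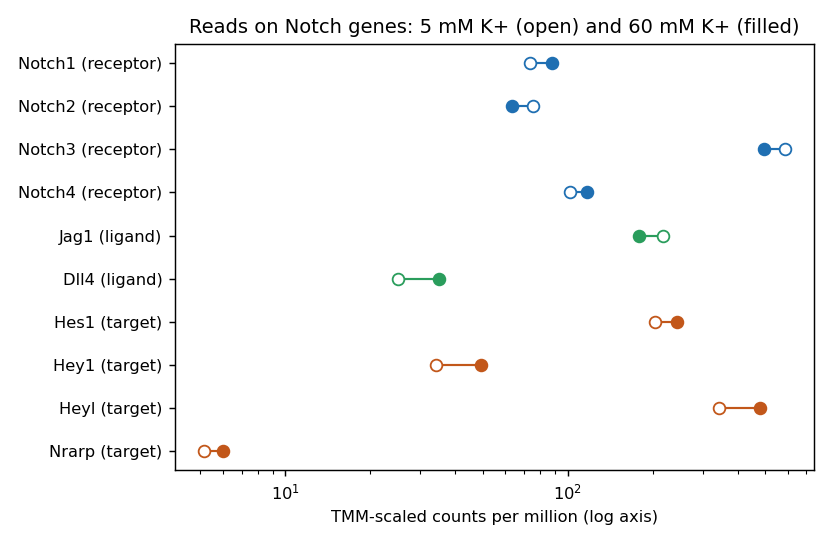
TMM-scaled CPM of each Notch gene (log axis) in 5 mM K+ (open points) and 60 mM K+ (filled points), colored by role. Filled points lie to the right for Dll4, Hey1 and Heyl, and less far to the right for Notch1, Notch4, Hes1 and Nrarp. For Notch2, Notch3 and Jag1 they lie to the left, and every pair lies within a 2-fold range.

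Among the receptors, Notch2 and Notch3 were lower in 60 mM K+, while the endothelial Notch1 and Notch4 were higher with TMM but not under each scaling. Notch3 (chromosome 17, 32257765 to 32303825 on mm9) had 6641 reads in 5 mM K+ against 5188 in 60 mM K+, which is 589 and 494 CPM. Its log2(fold-change) was -0.26 (interval -0.31 to -0.20), or 0.838-fold. Notch2 (chromosome 3, 97817461 to 97954290), the receptor of broader expression, had 845 and 664 reads, or 75.0 and 63.2 CPM. This gives a log2(fold-change) of -0.25 (interval -0.40 to -0.098). Both receptors were lower in the depolarized library, under each of 9 other scalings and corrections as well, although for Notch2 the value was -0.066 once a trend of fold change with gene length was removed.

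Notch1 (chromosome 2, 26313423 to 26372183), which directs arterial endothelial fate, had 828 reads in 5 mM K+ against 920 in 60 mM K+, or 73.5 and 87.6 CPM. Its log2(fold-change) was 0.25 (interval 0.12 to 0.39). Notch4 (chromosome 17, 34701213 to 34725448), the receptor largely restricted to endothelium, had 1144 and 1225 reads, or 101.5 and 116.6 CPM, with a log2(fold-change) of 0.20 (interval 0.083 to 0.32). Both were higher with TMM, but the direction rests on the scaling: with total counts Notch1 was at 0.045 and Notch4 at -0.0090, and with the median of endothelial markers set to 0 they were at -0.10 and -0.16. Among all genes, 57.5% had a larger absolute log2(fold-change) than Notch1 and 65.1% a larger one than Notch4.

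The ratio of one gene's reads to another's does not depend on library scaling. Among the 4 receptors, Notch1 and Notch4 were separated from Notch2 and Notch3 in this way, but not from each other. The ratio of Notch1 to Notch3 reads was 0.125 in 5 mM K+ and 0.177 in 60 mM K+, a change of 1.42-fold (95% exact conditional interval 1.28 to 1.58). Notch4 changed against Notch3 by 1.37-fold (interval 1.25 to 1.499) and against Notch2 by 1.36-fold (interval 1.19 to 1.56). Notch1 against Notch2 changed by 1.41-fold (interval 1.23 to 1.63). Intervals held 1 for the others: Notch1 against Notch4 changed by 1.04-fold (interval 0.915 to 1.18) and Notch2 against Notch3 by 1.01-fold (interval 0.902 to 1.12). The separation was smaller with the trend with gene length removed. Notch1 then changed by 1.31-fold against Notch3 and 1.23-fold against Notch2, and Notch4 by 1.26-fold and 1.19-fold against the same genes. As a share of reads on the 4 receptors, which is not corrected for length, Notch3 held 70.2% in 5 mM K+ (Clopper-Pearson interval 69.3% to 71.1%) and 64.9% in 60 mM K+ (63.8% to 65.9%).

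**Figure D2:**
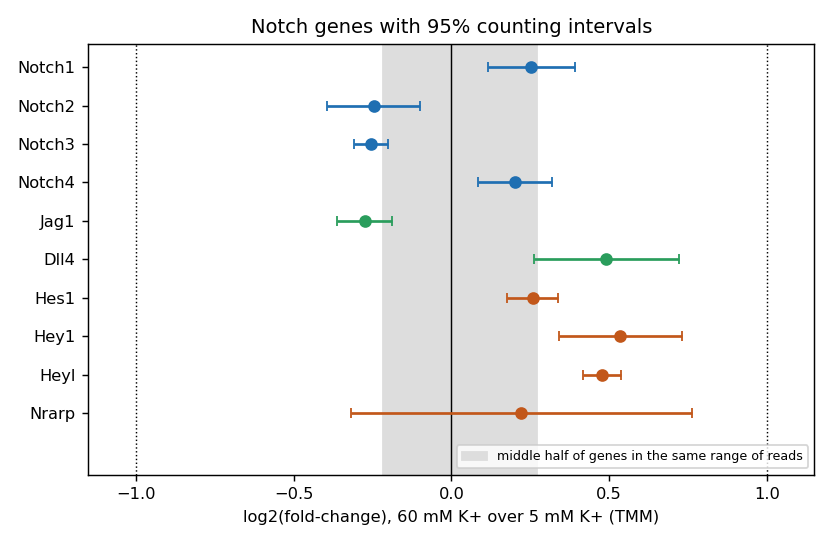
Points are log2(fold-change) of 60 mM K+ over 5 mM K+ (TMM) and bars are 95% counting intervals. The gray band, -0.22 to 0.27, runs from the lower to the upper quartile of the 10154 genes with 121 to 11829 reads, the range of the Notch genes, and dotted lines mark a 2-fold change. Dll4, Hey1 and Heyl lie to the right of the band, Notch2, Notch3 and Jag1 just to its left, and the interval of Nrarp crosses 0.

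The ligands Jag1 and Dll4 lay on opposite sides of 0. Jag1 (chromosome 2, 136907192 to 136942380), the ligand of both endothelium and smooth muscle, had 2441 reads in 5 mM K+ against 1880 in 60 mM K+, or 216.7 and 179 CPM. The log2(fold-change) of Jag1 was -0.28 (interval -0.36 to -0.19). Dll4 (chromosome 2, 119151520 to 119161698), the arterial endothelial ligand, had 281 and 368 reads, or 24.9 and 35.0 CPM, for a log2(fold-change) of 0.49 (interval 0.26 to 0.72). Jag1 was lower and Dll4 higher under each of the 9 other scalings and corrections, where Jag1 ranged from -0.63 to -0.16 and Dll4 from 0.13 to 0.55. The ratio of Dll4 to Jag1 reads was 0.115 in 5 mM K+ and 0.196 in 60 mM K+, a change of 1.70-fold (interval 1.44 to 2.02), which was the largest among the 13 pairs of genes with the same role. Against Notch3, Jag1 changed by 0.986-fold (interval 0.918 to 1.06), a pair chosen after its values were seen.

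The 4 target genes had more scaled reads in 60 mM K+ with TMM, but Hes1 and Nrarp were below 0 with the endothelial marker median at 0. Heyl (chromosome 4, 122910799 to 122927118), a repressor found downstream of Notch3 in smooth muscle, had 3869 reads in 5 mM K+ against 5020 in 60 mM K+, or 343 and 478 CPM. Its log2(fold-change) was 0.48 (interval 0.42 to 0.54), 39.2% above the control. Hey1 (chromosome 3, 8663362 to 8667039), a repressor of arterial endothelium, had 383 and 517 reads, or 34.0 and 49.2 CPM, and a log2(fold-change) of 0.53 (interval 0.34 to 0.73), the highest of the 10 genes with TMM, while Dll4 was highest, at 0.55, with the length trend removed. Still, 13.4% of all genes had a higher value than Hey1 and 15.6% a higher value than Heyl. Both stayed above 0 under each of the 9 other scalings and corrections, with the lowest values, 0.18 and 0.12, where the endothelial marker median was set to 0.

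Hes1 (chromosome 16, 30064470 to 30067882), a repressor that oscillates and is induced by many signals besides Notch, had 2298 and 2559 reads, or 204 and 243.7 CPM. Its log2(fold-change) was 0.26 (interval 0.18 to 0.34), and it was 0.048 with total counts and -0.10 with the endothelial marker median at 0. Nrarp (chromosome 2, 25036278 to 25038850), which destabilizes the Notch complex as feedback, had the fewest reads, 58 and 63, or 5.15 and 6.00 CPM. Its interval, -0.32 to 0.76 around 0.22, held 0, so that a difference was not detectable at this depth. The reads of Hey1 against Hes1 changed by 1.21-fold (interval 1.05 to 1.40) and those of Heyl against Hes1 by 1.17-fold (interval 1.09 to 1.25), while Hey1 against Heyl changed by 1.04-fold (interval 0.904 to 1.198). The 3 ratios to Nrarp had intervals from 0.702 to 1.85. In all, 7 of the 13 ratios within a role had intervals off 1, with no adjustment over the 13. The share among pairs of other genes was not computed, so this count is not read as particular to the Notch genes.

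Notch3 and Heyl, set side by side after their values were seen, lay on opposite sides of 0. The ratio of Heyl to Notch3 reads was 0.583 in 5 mM K+ and 0.968 in 60 mM K+, a change of 1.66-fold (interval 1.57 to 1.76). Dll4 changed against Notch4 by 1.22-fold (interval 1.02 to 1.46) and against Notch1 by 1.18-fold (interval 0.979 to 1.42), also pairs chosen afterwards.

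**Figure D3:**
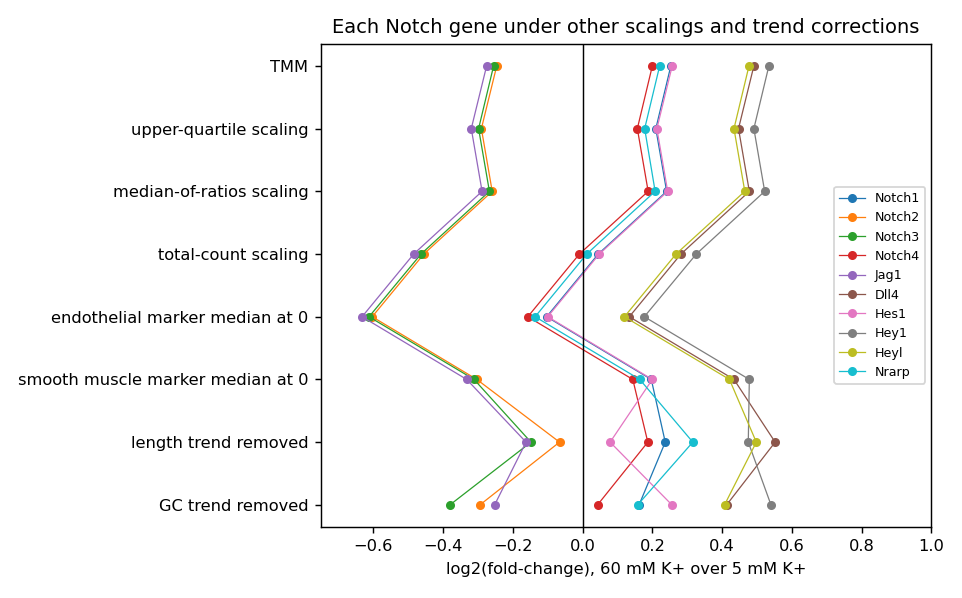
Each line is one Notch gene, and its points are log2(fold-change) under TMM and under 7 other scalings or trend corrections. Notch2, Notch3 and Jag1 are below 0 and Dll4, Hey1 and Heyl above 0 in every row, while Notch1, Notch4, Hes1 and Nrarp cross 0 when the endothelial marker median is set to 0, Notch4 with total counts as well.

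Marker genes of the vessel wall were read beside these values. Smooth muscle markers were present in 10 of 10, led by Acta2 and Myh11, with a median log2(fold-change) of 0.056 (-0.15 with total counts) and summed levels of 39100 CPM in 5 mM K+ and 42760 CPM in 60 mM K+. Their counting intervals lay above 0 for 6 and below 0 for 4, among them Myocd, a coactivator of contractile genes named after its value was seen, at -0.53 (interval -0.67 to -0.39). Endothelial markers were present in 15 of 15, none at 0, with a median of 0.36 (0.15 with total counts). Their summed levels were 4999 and 6598 CPM, and counting intervals lay above 0 for 12 and held 0 for 3. Among all genes, 25.0% of intervals lay above 0 and 20.3% below. In the Notch genes' range of reads these shares were 30.9% and 22.9%. With many reads an interval can leave 0 at a small difference, as for Myh11 at 0.048 (interval 0.037 to 0.058). Pecam1, the endothelial adhesion molecule, was at 0.50 and Vwf at 0.28 (0.19 after removal of the trend with GC content). Past 2-fold was 1 endothelial marker, Nos3 at 1.10 (0.89 with total counts), named after its value was seen, and it overlaps Atg9b. Fibroblast markers had a median of -0.080 and summed levels of 4360 and 4039 CPM, and macrophage markers, 8 of 9 matched, had a median of -0.062 and 44.4 and 40.5 CPM. The part of these cell types in the Notch values was not tested.

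Against the summed reads of the endothelial markers, Dll4 changed by 1.06-fold (interval 0.909 to 1.25) and Hey1 by 1.10-fold (interval 0.959 to 1.26), both intervals holding 1. Against the same sum, Notch1 was at 0.903-fold (interval 0.821 to 0.994) and Notch4 at 0.870-fold (interval 0.802 to 0.945). Against the summed smooth muscle markers, Notch3 was at 0.766-fold (interval 0.739 to 0.795) and Jag1 at 0.756-fold (interval 0.711 to 0.803). Heyl was at 1.27-fold against the smooth muscle sum (interval 1.22 to 1.33) and at 1.055-fold against the endothelial sum (interval 1.01 to 1.10). In 5 mM K+, Acta2 with 187183 reads and Myh11 with 154041 made up most of the 440568 smooth muscle marker reads. Likewise, Pecam1 with 19497 reads and Vwf with 10480 made up most of the 56321 endothelial marker reads in 5 mM K+.

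Levels between genes were compared per length, in the deposited FPKM, which are scaled by total counts. In 5 mM K+ the order was Hes1 at 305 FPKM, Notch3 at 202.7, Heyl at 200.1, Notch4 at 70.6, Jag1 at 65.8, Notch1 at 52.0, Hey1 at 29.2, Notch2 at 13.0, Dll4 at 12.1 and Nrarp at 2.14. Notch3 and Heyl, Notch4 and Jag1, and Notch2 and Dll4 were not separated from each other by counting error. In 60 mM K+ Heyl at 241 FPKM stood above Notch3 at 147, Notch1 at 53.7 above Jag1 at 47.1, and Dll4 at 14.7 above Notch2 at 9.49, each with a ratio interval above 1. Hes1 at 316 and Nrarp at 2.16 remained the ends of the order. Of all genes, 2.06% had a higher FPKM than Hes1 in 5 mM K+ and 76.0% a higher FPKM than Nrarp.

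The FPKM levels depend on the gene lengths that they contain. Counts divided by FPKM give a length of 1519 bases for Notch1, whose longest coding transcript in GENCODE vM1 has 9488 bases, and 1547 bases for Notch4, with 6591 bases. For Hes1 the lengths are 718 and 1468 bases, for Notch3 3126 and 8044, and for Nrarp 2582 and 2573. With reads per kilobase of the longest coding transcript, Notch3 made up 70.8% of the summed level of the 4 receptors in 5 mM K+, compared with 59.9% by FPKM, and Notch1 made up 7.48% compared with 15.4%. In 60 mM K+ Notch3 made up 65.1% by transcript length and 52.5% by FPKM. Notch3 was the most abundant receptor and had a smaller share in 60 mM K+ by every length used, while the rank of Notch1, Notch4 and Jag1 among the 10 genes moved with the length: by the longest transcript, Jag1 was above both receptors in both libraries. The TMM fold changes do not use the lengths in the FPKM, whereas the values with the length trend removed do.

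**Figure D4:**
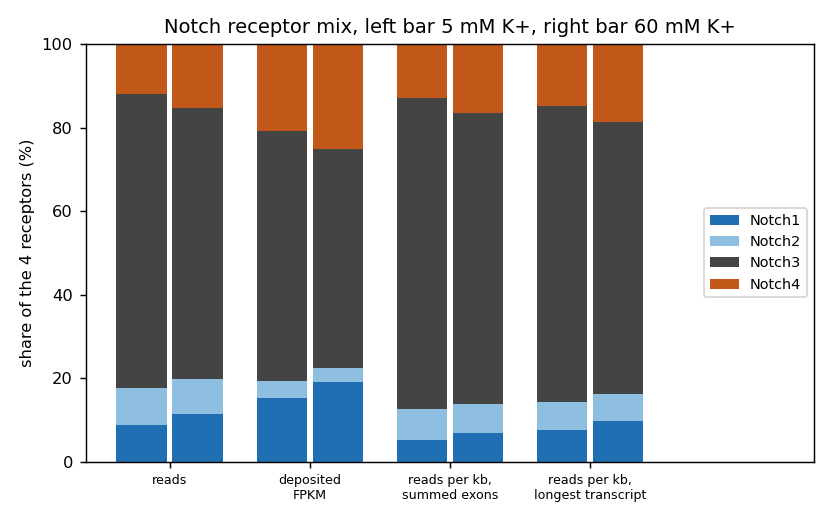
Stacked bars are the shares (%) of the 4 Notch receptors in reads, deposited FPKM, reads per kilobase of summed exons and reads per kilobase of the longest coding transcript, with 5 mM K+ on the left and 60 mM K+ on the right of each pair. Notch3 takes the largest part in every bar, from 52.5% to 74.6% over the per-length scales.

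The other genes of the pathway came from 8 lists of 90 genes, of which 82 reached 10 reads. Past 2-fold, 5 were higher and 2 lower in 60 mM K+, beside background shares of 5.54% and 5.86% of all genes. Their median log2(fold-change) was 0.098 with TMM and -0.11 with total counts. The counting interval lay above 0 for 33 genes and below 0 for 18 genes, beside 25.0% and 20.3% of all genes. The medians of the cleavage list, the other Hes and Hey factors and the arterial endothelial list, given below as above 0, were under 0 with total counts, at -0.096, -0.045 and -0.12.

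Among the other ligands, Dll1 (chromosome 17, 15504318 to 15513836), a Delta-like ligand, rose past 2-fold from 200 to 497 reads. Its log2(fold-change) was 1.42 (interval 1.18 to 1.66), and 1.21 with total counts, and it overlaps A930024N18Rik. The list held 6 genes, of which 4 reached 10 reads, 2 passed 2-fold upward and none downward, and Dll3 was at 0 reads in both libraries. The second, Dlk1, a ligand-like protein, rested on 3 and 14 reads (log2(fold-change) 2.32, interval 0.48 to 4.76) and is named after its value was seen. Jag2, the ligand closest to Jag1, had 611 and 797 reads and is named to complete the ligands, after its value was seen. Of the reads on Jag1, Jag2, Dll1 and Dll4 together, Jag1 held 69.1% in 5 mM K+ (Clopper-Pearson interval 67.5% to 70.6%) and 53.1% in 60 mM K+ (51.4% to 54.7%). Dll1 held 5.66% and 14.0%, Jag2 17.3% and 22.5%, and Dll4 7.95% and 10.4%. These shares rest on 3533 and 3542 reads, are not corrected for length, and were computed after the values were seen.

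In the list of endocytosis and ubiquitin ligases, 1 of 15 genes passed 2-fold upward and 1 downward, with a median of -0.14. Neurl3, a neuralized-family ubiquitin ligase, rose from 63 to 263 reads, which is 2.16 on the log2 scale (interval 1.76 to 2.58). Dtx4, of the Deltex family that binds the Notch intracellular part, fell from 116 to 49 reads, which is -1.14 on the log2 scale (interval -1.65 to -0.65), and it was at -0.99 once the trend with length was removed. Among 19 genes of the nuclear complex, which carry the signal to DNA, the median was -0.10.

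Receptor glycosylation and cleavage held no gene past 2-fold. The 5 glycosylation genes had a median of -0.14. Poglut1, which adds glucose to the receptor, was at -0.14 (interval -0.32 to 0.030), the fringe enzyme Mfng at 0.076 (interval -0.17 to 0.32) and Pofut1, which adds fucose, at -0.23 (interval -0.40 to -0.059). The 10 cleavage genes had a median of 0.11. Of the γ-secretase subunits, Psen2 was at 0.73 (interval 0.51 to 0.94), Psenen at 0.41 (interval 0.23 to 0.59) and Ncstn, which overlaps Copa, at 0.0040 (interval -0.12 to 0.13).

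Of 9 other Hes and Hey factors and related repressors, 4 reached 10 reads, with a median of 0.16, and none passed 2-fold. Hes2, Hes3, Hes5 and Helt were at 0 in both libraries. Hey2, the close relative of Hey1 in arteries, had 1942 and 2008 reads, which is 0.15 on the log2 scale (interval 0.059 to 0.24), with -0.059 under total counts. Bhlhe40, a repressor of the clock and hypoxia responses and not a specific Notch target, had 5274 and 9612 reads and was at 0.97 (interval 0.92 to 1.02), and it overlaps 0610040F04Rik. In the list of arterial endothelial Notch genes, 15 of 16 reached 10 reads, the median was 0.094, and 1 gene passed 2-fold, downward. The list mixes genes that Notch signaling is known to raise and to restrain, so its median has no single expected direction. Counting intervals lay above 0 for 5, below 0 for 4 and held 0 for 6, beside 25.0% above and 20.3% below among all genes. This gene was Kdr, a VEGF receptor, which fell from 168 to 73 reads. That is -1.10 on the log2 scale (interval -1.52 to -0.70), and Kdr was at -0.97 with the length trend removed. Among 10 mural genes the median was 0.28 and Id3 alone passed 2-fold, from 4207 to 10533 reads, or 1.43 on the log2 scale (interval 1.37 to 1.48). Of these genes, Acta2, Myh11, Tagln, Cnn1 and Smtn are smooth muscle markers as well, so the lists are not separate. Id3, an inhibitor of helix-loop-helix factors, is best known as a target of BMP signaling.

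**Figure D5:**
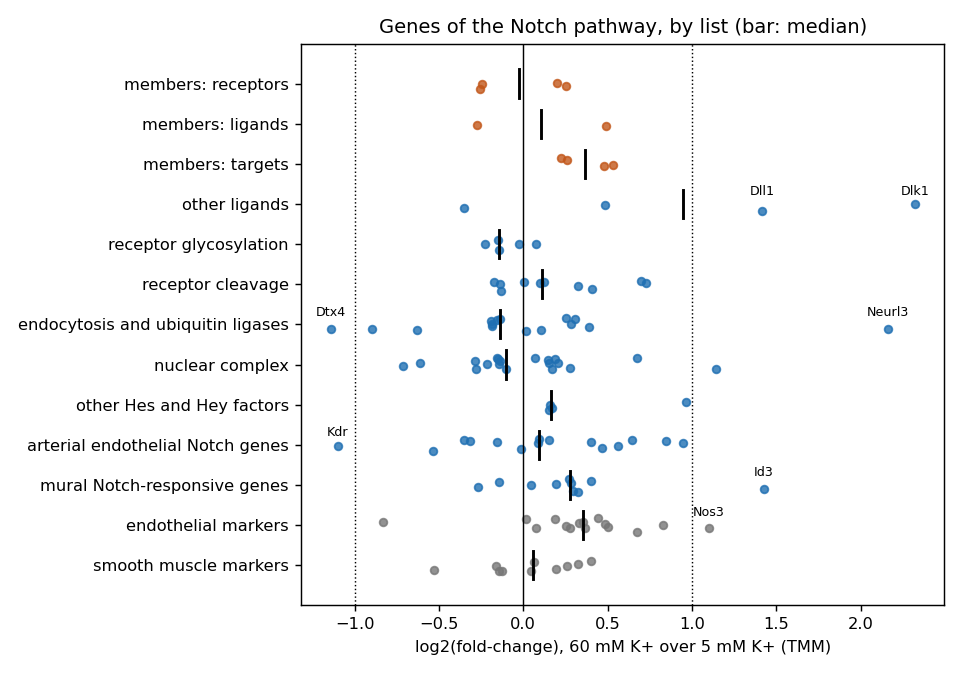
Points are genes with at least 10 reads, placed by log2(fold-change) of 60 mM K+ over 5 mM K+ (TMM), 1 row for each list, with black bars at the median and dotted lines at a 2-fold change. Labels mark the genes past 2-fold that the text names. The 10 Notch genes lie between the dotted lines. The 4 targets run from 0.22 to 0.53 (median 0.37) and the endothelial markers from -0.83 to 1.10 (median 0.36).

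Antisense genes overlap Notch1, Notch4 and Dll4, with at most 5 reads counted on them in a library, and whether reads were assigned by strand is not stated. Gm17276, which overlaps Notch3 on the opposite strand, was not analysed here.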

How the data were processed

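RNA-seq libraries of mouse mesenteric artery were analysed, 1 in 5 mM K+ and 1 in 60 mM K+, each from tissue of 2 mice. TopHat2 was used by the authors for alignment to mm9, and they deposited raw counts per gene. The submitters' processing notes list TopHat2 2.0.12, HTSeq 0.6.1 and edgeR 3.0.8; the gene annotation is not given in the sources used here. The authors also deposited FPKM, and counts divided by FPKM differ between libraries by 1.08, the ratio of library totals.

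Counts were scaled with TMM factors (edgeR 4.0.16, R 4.3.3), which gave effective sizes of 11266853 and 10502077 reads. A count of 0 was set to 0.5. Without replicates, no quasi-likelihood fit could be run and the DEGSeq test of the study, which compares reads of single libraries, was not used. Genes needed 10 reads in both libraries together, and 2-fold is the threshold of the study's methods. Ratios between genes have exact conditional intervals (scipy 1.17.1). All intervals cover counting error only. Alternatives were scaling by total counts, by upper quartiles and by median-of-ratios factors (DESeq2 1.42.0), marker medians set to 0, FPKM with pseudocounts of 0.1 and 1, other read minimums and thresholds, and removal of trends with gene length and GC content (lowess, span 0.3); the GC trend and the lengths from GENCODE vM1 were added after the data were seen. Positions are from GENCODE vM1 on mm9 (NCBIM37), which holds 32601 of 55573 genes. Sequences are from RefSeq (GRCm38.p6). The fold-change intervals were run on counts simulated with counting error alone, the error that they assume. Such a run cannot show how they cover the spread between animals or libraries. Intervals of ratios between genes were not simulated. Named are the 10 Notch genes and, from each pathway list, genes past 2-fold with at least 50 reads, or else the 2 of highest FPKM and the largest change; from marker lists, the 2 of highest FPKM could be named. Members and lists were chosen with earlier results of these data known. Some genes that this rule names are not reported here. All per-sample columns were used.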

Additional observations from a re-analysis of the deposited data

How the results depend on the processing

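No paired analysis was possible because there was 1 sample of each kind. That no Notch gene passed 2-fold, in either direction, held under all 13 alternatives run, and none passed 1.5-fold with TMM. The other read minimums could not change this, because the gene with fewest reads, Nrarp, had 121. The threshold on the nearest interval end is stricter than the main rule. With the endothelial marker median at 0, Notch2 (-0.60), Notch3 (-0.61) and Jag1 (-0.63) lay past 1.5-fold, a log2 of 0.58. The median of the Notch genes, 0.24 on the log2 scale, was 0.028 with total counts and -0.12 with the endothelial marker median at 0. With FPKM and pseudocounts of 0.1 and 1 it was 0.028 and 0.026. For the 82 other pathway genes, 0.098 became -0.11 with total counts, -0.26 with the endothelial marker median at 0, and -0.11 and -0.10 with the FPKM. Total counts and the marker median shift all genes equally by construction, and the FPKM share the total-count scaling. The number of other pathway genes past 2-fold, 7, was 3 with FPKM and a pseudocount of 1, which shrinks low genes. The number was 18 at 1.5-fold and 4 with the threshold on the nearest interval end. Shares of all genes at these settings are not given here, so these counts are not read as particular to the pathway. The number of ratios within a role with an interval off 1 was 7 with the length or GC trend removed. The Notch3 share of receptor level, 59.9% and 52.5% in FPKM, was 74.6% and 69.7% per summed exons and 70.8% and 65.1% per longest transcript. Of 90 single-gene values under other settings, 41 moved by more than the counting error and 49 did not. Depth limits Nrarp most, and the spread between animals is unknown.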

Other observations

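Marker lists of tissue around the artery also differed between the libraries, and their part in the Notch values was not tested. The 6 pancreas markers had 134 reads in 5 mM K+ against 430 in 60 mM K+, a median log2(fold-change) of 3.00 and 5 genes past 2-fold, with Cpb1 at 0.60 and Ctrb1 at 2.72. The 5 adipocyte markers had a median of -0.90, with Fabp4, a lipid carrier also made by endothelium, at -0.055 (interval -0.18 to 0.073) and Cidec at -0.90. Of 5 lymphatic endothelial markers, 4 were matched, with a median of -0.62; Lyve1 was at -1.14 and Pdpn at 0.85. The 5 Schwann cell and nerve markers had a median of -0.24, with Mbp at -0.24.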
